A study of Vitis vinifera and Vitis vinifera
Schisandra chinensis with 13 samples.

Results

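The peroxisome genes described here are the genes of the deposited expression table whose KEGG annotation names the pathway Peroxisome and does not also name Carbon metabolism. They are 54 of the 25819 genes in the table, and 10 further peroxisome genes that also belong to carbon metabolism, such as catalase and glycolate oxidase, were left out by this choice. The 54 genes fall under 30 KEGG orthology entries, 22 carry a gene symbol and 19 carry a Gene Ontology term that names the peroxisome. Where the deposited description names a protein, in 9 of the 54 genes, it was the protein of the orthology entry in 9 cases. For the other genes the protein name rests on the orthology entry alone.

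Peroxisomes are small organelles bounded by a single membrane, in which fatty acids are shortened by beta-oxidation and the hydrogen peroxide made on the way is broken down. Their enzymes are made in the cytosol, recognized by the receptors PEX5 and PEX7 and pulled across the membrane by other peroxins, the PEX proteins. In leaves peroxisomes take part in photorespiration, and in many plant tissues their beta-oxidation provides the last steps in the synthesis of jasmonic acid.

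Grapevines on roots of their own species and of another were compared, which had stood at one site for 25 years and were sampled in the harvest season. The Vv plants are *Vitis vinifera* of the cultivar ‘Hongruibao’, which the study calls self-rooted and also self-grafted. The Vs hybrids are scions of the same cultivar grafted onto rootstocks of wild *Schisandra chinensis*, a woody vine of another family. Each RNA-seq library held a mix of RNA from leaf, phloem and whole ripe berry, with 3 plants per group as biological replicates and no further treatment. A difference between libraries can therefore lie in the share of an organ in the pool or in the level within an organ, and in such bulk RNA fewer cells of a type and less RNA per cell cannot be told apart. Expression was given as FPKM, a fragment count scaled by transcript length and library size, without the read counts themselves, so the depth behind a single value is unknown.

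The libraries differed in more than the peroxisome genes. Summed over all genes, FPKM was 439752 to 461260 across the Vv replicates and 520529 to 582510 across the Vs replicates, and the 10 highest genes took 20.3 to 24.5% and 34.1 to 47.3% of it. Ribosomal RNA took 3.47 to 5.63% across the Vv replicates and 8.61 to 11.1% across the Vs replicates. The median log2 fold change of all 15447 tested genes, those with a mean of at least 1 FPKM, was -0.25. After median-ratio scaling, which divides each library by its typical ratio to the gene means, this median was 0.00. The 16 genes of the photosynthetic antenna, taken as markers of leaf, were lowest in Vv replicate 3. Their summed FPKM was 6483, 5756 and 909 in Vv replicates 1, 2 and 3 and 8002, 6613 and 10895.5 in Vs replicates 1, 2 and 3. All Vs libraries thus lay above all Vv libraries. As a share of all FPKM the groups overlapped, at 1.41, 1.25 and 0.207% across the Vv replicates and 1.37, 1.18 and 2.09% across the Vs replicates. The names chosen for phloem and the descriptions chosen for ripe berry matched 0 genes, so these organs were not followed.

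Peroxisome transcripts took a smaller share of the total in Vs hybrids. The summed FPKM of the 54 genes was 1482, 1476 and 1449 in Vv replicates 1, 2 and 3 and 909, 1141 and 1173 in Vs replicates 1, 2 and 3. This was 0.321, 0.321 and 0.330% of all FPKM across the Vv replicates and 0.156, 0.203 and 0.225% across the Vs replicates. The groups did not overlap on either scale, and Vs replicate 1 was the lowest of the 6 libraries. Neither scale includes the median-ratio scaling, whose divisors were 1.08 to 1.19 for the Vv and 0.829 to 0.975 for the Vs libraries. Divided by them, the summed FPKM of the groups overlap, with Vs replicate 3 above Vv replicate 2. The antenna genes moved otherwise, since their share was lowest in Vv replicate 3, where the share of the peroxisome genes was the highest of all. The 10 highest genes and ribosomal RNA held more of the total in the same Vs libraries, and their part in the result was not tested.

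Of the 54 genes, 50 had a mean of at least 1 FPKM and were tested with limma on log2(FPKM + 1), a scale that understates the change of low genes. At an adjusted p under 0.05 over all tested genes, 1 peroxisome gene was lower in Vs hybrids and 0 were higher, where 0.44% of all tested genes passed in either direction and 0.22% were lower. At an unadjusted limma p under 0.05, 14 were lower and 1 was higher, and over all tested genes these shares were 17.1% and 3.85%. With median-ratio scaling 5 were lower and 1 was higher, where 1064 of the 15447 tested genes were lower and 1193 higher. The study results name a p under 0.005 with a log2 fold change beyond 1. The study methods add a false discovery rate under 0.05. With the unadjusted limma p, the thresholds of the study results were passed by 2 genes, of which only MSTRG.3093 also had an adjusted p under 0.05. Both were lower, where 2.73% of all tested genes passed and 1.93% were lower. After median-ratio scaling this split was 1 lower (MSTRG.3093) and 1 higher (MSTRG.18940), where 0.893% of all tested genes were lower and 1.46% higher. Counts of 1 and 2 among 50 genes are too small to be set against these shares.

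As a list, the log2 fold changes of the 50 tested genes ranged from -1.85 to 1.16 with a median of -0.35, beside -0.25 over all tested genes. They were below 0 in 40 genes, or 80%, where 67.5% of all tested genes were below 0. The 3 Vs libraries all lay below the 3 Vv libraries in 18 genes, or 36%, where 26.2% of all tested genes did so, and all above in 1 gene, or 2%, where 5.55% did so. After median-ratio scaling 27 of the 50 genes were below 0, or 54% beside 49.8% of all tested genes, and the median was -0.093. On that scale the Vs libraries were all below in 11 genes, or 22% beside 12.3%, and all above in 5 genes, or 10% beside 12.4%. The scaling thus moved the median of the list by about as much as that of all tested genes.

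No gene of the import machinery passed the adjusted test. The receptor PEX5 (MSTRG.11864), which binds enzymes that end in the common peroxisomal targeting signal, was at 19.5, 24.6 and 24.0 FPKM in Vv replicates 1, 2 and 3 and at 10.2, 13.2 and 14.98 in Vs replicates 1, 2 and 3. All Vs libraries lay below all Vv libraries, with a log2 fold change of -0.79 (SE 0.22, limma adjusted p = 0.163). PEX19 (MSTRG.12697), the cytosolic chaperone that brings membrane proteins to the peroxisome, was the highest of the import genes, at 44.1, 48.7 and 67.5 FPKM across the Vv replicates and 20.1, 33.8 and 30.3 across the Vs replicates. Its groups did not overlap either, with a log2 fold change of -0.91 (SE 0.29, limma adjusted p = 0.182).

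Of the 11 import genes, 9 had a log2 fold change below 0, or 81.8% beside 67.5% of all tested genes, and 2 above. Their median was -0.25, the same as that of all tested genes, and -0.16 without Vv replicate 1. After median-ratio scaling the median was 0.020 and 5 of the 11 were below 0. On that scale the groups did not overlap, with Vs below, in 2, or 18.2% beside 12.3% of all tested genes. Before scaling the Vs libraries all lay below the Vv libraries in 5 genes, or 45.5% beside 26.2%. Among these were PEX5, PEX19, PEX3 (MSTRG.8677), the membrane anchor to which PEX19 docks, and TED3 (MSTRG.20290), the PEX2 gene, whose RING protein attaches ubiquitin to the receptor. PEX14 (MSTRG.9174), the docking protein at the membrane, was at 38.3, 33.0 and 35.6 FPKM across the Vv replicates and 26.5, 36.5 and 36.5 across the Vs replicates. Its levels overlapped between the groups, and Vs replicate 1 stood below the other 5 libraries. PEX7 (MSTRG.1410), the receptor for the second kind of targeting signal, was listed at 0 FPKM in 5 libraries and at 10.3 in Vs replicate 1. This single library gave the highest log2 fold change of the whole list, and no fold is given for it. PEX14 and PEX7, like the other genes outside the naming rule, were chosen after their values were seen.

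**Figure D1:**
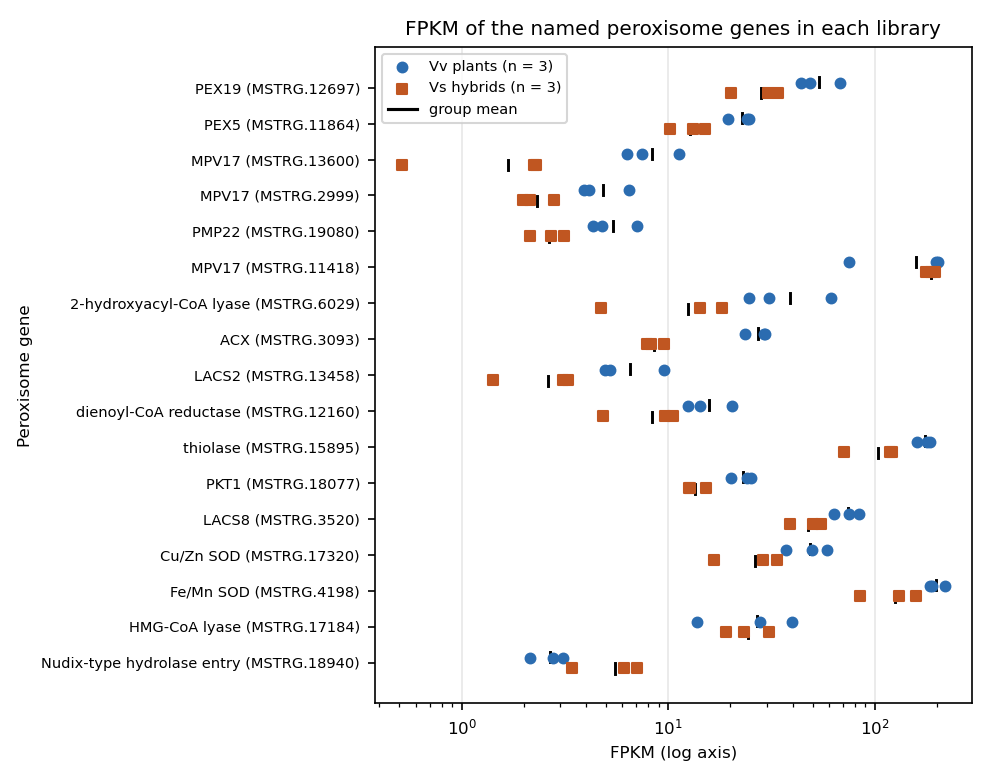
FPKM of 17 of the 18 peroxisome genes chosen by rule, on a log axis, with 1 point per library, blue circles for the 3 Vv plants, orange squares for the 3 Vs hybrids and black ticks for the group means. The Vs squares lie left of the Vv circles for most genes, right of them for the Nudix-type entry (2.13 to 3.11 FPKM against 3.43 to 7.08), and overlap for MPV17 (MSTRG.11418) and HMG-CoA lyase (MSTRG.17184).

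Among the membrane proteins the 7 genes of the MPV17 entry spanned the widest range. MPV17 and PMP22 proteins form a family of small integral membrane proteins, named from mammalian mitochondrial and peroxisomal members. MSTRG.13600 was at 7.47, 6.31 and 11.3 FPKM across the Vv replicates and 2.30, 2.24 and 0.513 across the Vs replicates. The groups were well apart, with a mean of 8.36 ± 2.62 FPKM (SD, n = 3) against 1.68 ± 1.01 (SD, n = 3), and the log2 fold change was -1.85 (SE 0.38, limma adjusted p = 0.128). It was the lowest log2 fold change of the whole list and the second gene past the thresholds of the study results, which leave out the false discovery rate. It did not pass them after median-ratio scaling (log2 fold change -1.61), and of the fits without 1 library it passed only in that without Vs replicate 3. A second MPV17 gene, MSTRG.2999, was at 6.46, 3.92 and 4.15 FPKM across the Vv replicates and 2.81, 2.14 and 1.99 across the Vs replicates. Its groups did not overlap (log2 fold change -0.80, SE 0.25, limma adjusted p = 0.178). The PMP22 gene MSTRG.19080 had the same order, at 4.33, 4.76 and 7.03 FPKM across the Vv replicates and 2.14, 3.11 and 2.69 across the Vs replicates (log2 fold change -0.79, SE 0.24, limma adjusted p = 0.177).

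The most abundant membrane gene did not share this order. MPV17 gene MSTRG.11418 was at 197, 201 and 74.9 FPKM across the Vv replicates and 186, 177 and 195 across the Vs replicates. Apart from Vv replicate 3 the 5 libraries lay close together, and the log2 fold change of 0.37 (SE 0.43, limma adjusted p = 0.628) became -0.098 without that library. The entry SLC25A17, a carrier of cofactors such as coenzyme A and NAD+ across the peroxisomal membrane, was held by 2 genes, MSTRG.4452 at 8.96 to 14.5 FPKM across the Vv replicates and 6.70 to 11.04 across the Vs replicates, and MSTRG.9373 at 9.24 to 15.7 and 11.2 to 14.5. Both overlapped between the groups. Over the 10 tested membrane genes the median log2 fold change was -0.30, with 7 below 0, or 70%, beside 67.5% of all tested genes. In 3, or 30%, the Vs libraries all lay below, beside 26.2% of all tested genes. The median of the membrane genes was -0.20 without Vs replicate 3 and -0.070 after median-ratio scaling. On that scale the Vs libraries all lay below in 2, or 20%, beside 12.3%. A second PMP22 gene, MSTRG.15789, did not reach the minimum mean, at 3.72 FPKM in Vv replicate 1, 1.05 in Vs replicate 1 and 0.231 to 0.285 in the other 4 libraries.

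**Figure D2:**
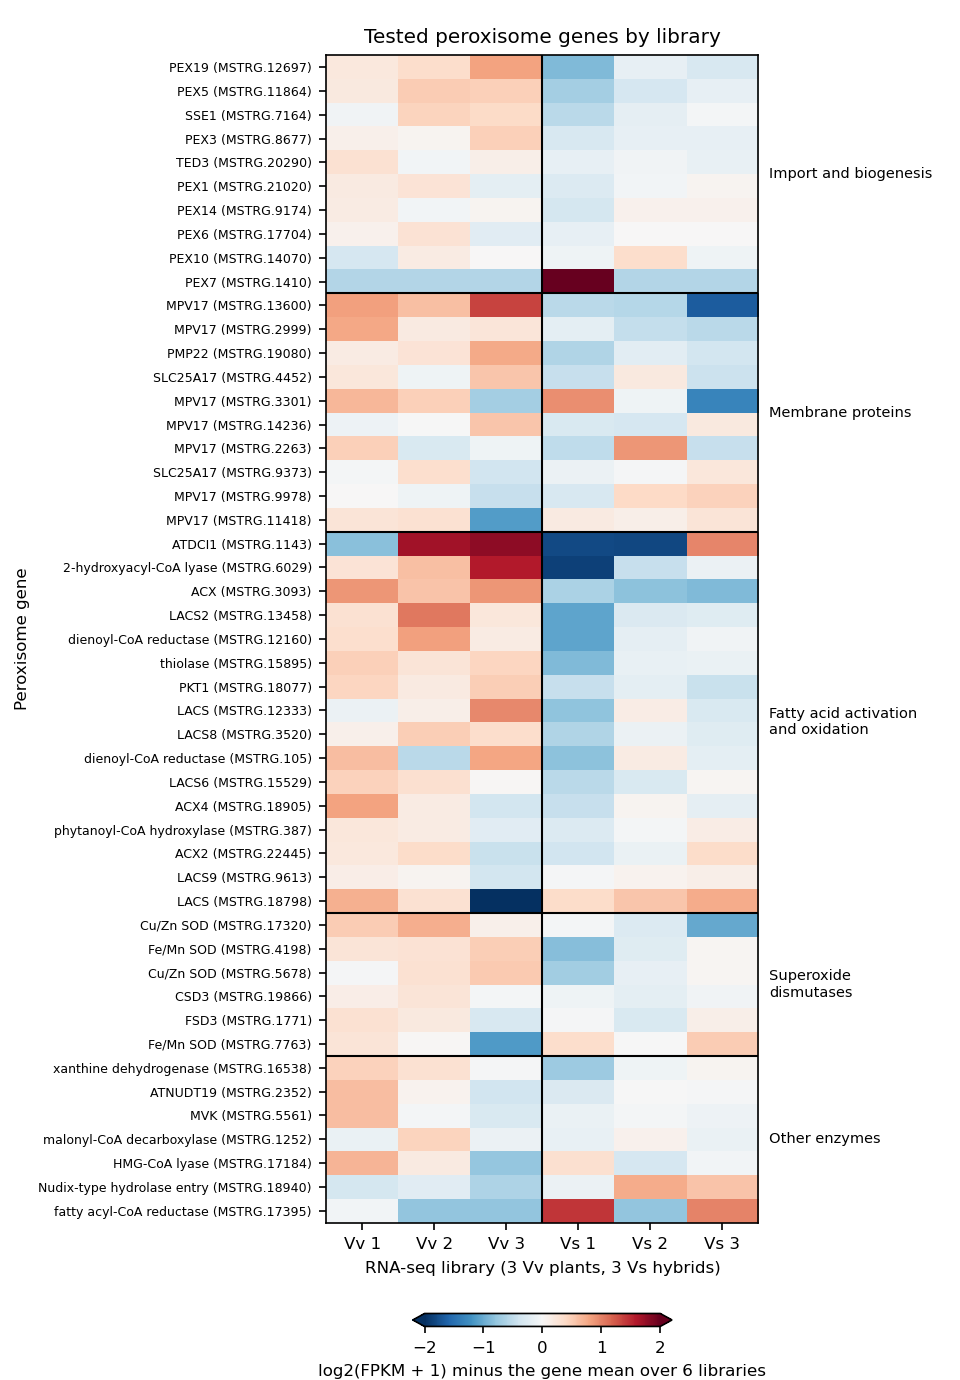
Each row is 1 of 49 of the 50 tested peroxisome genes, ordered by role and fold change, and each column is 1 library. Color gives log2(FPKM + 1) minus the mean of the gene over the 6 libraries, from blue (lower) to red (higher), and the Vs side is bluer for most rows, with Vs replicate 1 the lowest library in 26 of all 50 tested genes and Vv replicate 3 in 13.

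Fatty acid activation and oxidation held the only called gene. Acyl-CoA oxidase (ACX) carries out the first step of peroxisomal beta-oxidation and gives off hydrogen peroxide. The ACX gene MSTRG.3093 was at 29.3, 23.4 and 29.0 FPKM in Vv replicates 1, 2 and 3 and at 9.57, 8.27 and 7.86 in Vs replicates 1, 2 and 3. The replicates of each group were close together and the groups far apart. It fell from a mean of 27.2 ± 3.31 FPKM to 8.57 ± 0.896 (SD, n = 3 each), and the log2 fold change was -1.56 (SE 0.19, limma adjusted p = 0.0393). The call was lost whichever library was left out (limma adjusted p = 0.0667 to 0.191), although the log2 fold change then stayed between -1.66 and -1.51, and it was lost after median-ratio scaling (log2 fold change -1.27, limma adjusted p = 0.107). The other 2 acyl-CoA oxidase genes overlapped between the groups. ACX4 (MSTRG.18905), which in Arabidopsis acts on short chains, was at 36.2, 22.8 and 15.5 FPKM across the Vv replicates and 14.5, 21.2 and 17.8 across the Vs replicates. ACX2 (MSTRG.22445), which in Arabidopsis acts on long chains, was at 8.35, 9.45 and 4.94 FPKM and 5.22, 6.36 and 9.38.

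Thiolase, which splits off acetyl-CoA in the last step of each round of beta-oxidation, was held by 2 genes. The more abundant, MSTRG.15895, was at 184, 159 and 179 FPKM across the Vv replicates and 71.3, 119 and 121 across the Vs replicates. The lowest Vv library exceeded the highest Vs library, with Vs replicate 1 well below the others, and the log2 fold change was -0.78 (SE 0.29, limma adjusted p = 0.211). PKT1 (MSTRG.18077) was at 24.0, 20.2 and 25.2 FPKM across the Vv replicates and 12.6, 15.2 and 12.7 across the Vs replicates. Its groups were also apart, with a log2 fold change of -0.73 (SE 0.19, limma adjusted p = 0.159).

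Long-chain acyl-CoA synthetases (LACS) attach coenzyme A to free fatty acids, and not all of the 6 LACS genes serve the peroxisome, since in Arabidopsis LACS2 acts in cutin synthesis, LACS9 in the plastid envelope and LACS6 in the peroxisome. LACS2 (MSTRG.13458) was at 5.21, 9.53 and 4.93 FPKM across the Vv replicates and 1.42, 3.11 and 3.28 across the Vs replicates. The groups did not overlap, with a log2 fold change of -1.06 (SE 0.34, limma adjusted p = 0.183). LACS8 (MSTRG.3520) was at 63.7, 83.4 and 75.3 FPKM across the Vv replicates and 38.6, 54.6 and 49.9 across the Vs replicates, again without overlap (log2 fold change -0.63, SE 0.23, limma adjusted p = 0.214). LACS6 (MSTRG.15529) was at 29.7, 26.7 and 21.6 FPKM and 14.2, 17.0 and 21.8, so that the lowest Vv and the highest Vs library met. LACS9 (MSTRG.9613) was at 10.1 to 14.8 FPKM across the Vv replicates and 13.2 to 14.6 across the Vs replicates, which overlapped. The LACS gene MSTRG.18798 was at 38.3, 28.7 and 2.76 FPKM across the Vv replicates and 30.2, 34.3 and 39.5 across the Vs replicates. It was low in Vv replicate 3 alone. The most abundant LACS gene, MSTRG.12333, was at 84.0, 99.0 and 180 FPKM across the Vv replicates and 52.0, 101 and 73.4 across the Vs replicates. Its groups overlapped.

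Enzymes for unusual fatty acids differed in their spread. The 2-hydroxyacyl-CoA lyase gene MSTRG.6029, of the alpha-oxidation of branched fatty acids in mammals, was at 24.5, 30.7 and 61.6 FPKM across the Vv replicates and 4.73, 14.2 and 18.3 across the Vs replicates. The groups did not overlap although each spanned a wide range, and the log2 fold change was -1.64 (SE 0.55, limma adjusted p = 0.194). The 2,4-dienoyl-CoA reductase gene MSTRG.12160, of the breakdown of unsaturated fatty acids, was at 14.2, 20.4 and 12.5 FPKM across the Vv replicates and 4.81, 9.67 and 10.5 across the Vs replicates (log2 fold change -0.88, SE 0.33, limma adjusted p = 0.220). The dienoyl-CoA isomerase gene ATDCI1 (MSTRG.1143) was at 1.06, 10.7 and 11.6 FPKM across the Vv replicates and 0.0432, 0.0368 and 6.23 across the Vs replicates. It differed as much within each group as between the groups. Another 2,4-dienoyl-CoA reductase gene, MSTRG.105, was at 38.4, 16.8 and 43.2 FPKM across the Vv replicates and 13.5, 27.7 and 21.5 across the Vs replicates. The phytanoyl-CoA hydroxylase gene MSTRG.387 was at 24.7, 23.5 and 17.9 FPKM across the Vv replicates and 17.2, 20.4 and 23.4 across the Vs replicates. Both overlapped between the groups.

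Over the 16 tested genes of 17 for fatty acid activation and oxidation, 14 were below 0, where 67.5% of all tested genes were, and the median log2 fold change was -0.64, beside -0.25 over all tested genes. It was the lowest median of the 5 roles. In 7 of the 16, or 43.8%, the Vs libraries all lay below the Vv libraries, where 26.2% of all tested genes did so, and 7 did so after median-ratio scaling, beside 12.3%. On that scale 12 of the 16 were below 0 with a median of -0.33, beside 0.00 over all tested genes. Without Vs replicate 1 the median was -0.45. The 18 tested genes of fatty acid degradation outside the peroxisome list had a median close to it, -0.60, with 14 below 0. None of these was called by limma at an adjusted p under 0.05, and their median was -0.35 after scaling and -0.25 without Vs replicate 1. In 7 of the 18 the Vs libraries all lay below, beside 26.2% of all tested genes. The thresholds of the study results were passed by 3, all lower, where 1.93% of all tested genes were. This count was 3 after scaling, beside 0.893%, and 0 to 3 when 1 library was left out. The low values were therefore not shown to be particular to the peroxisome.

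**Figure D3:**
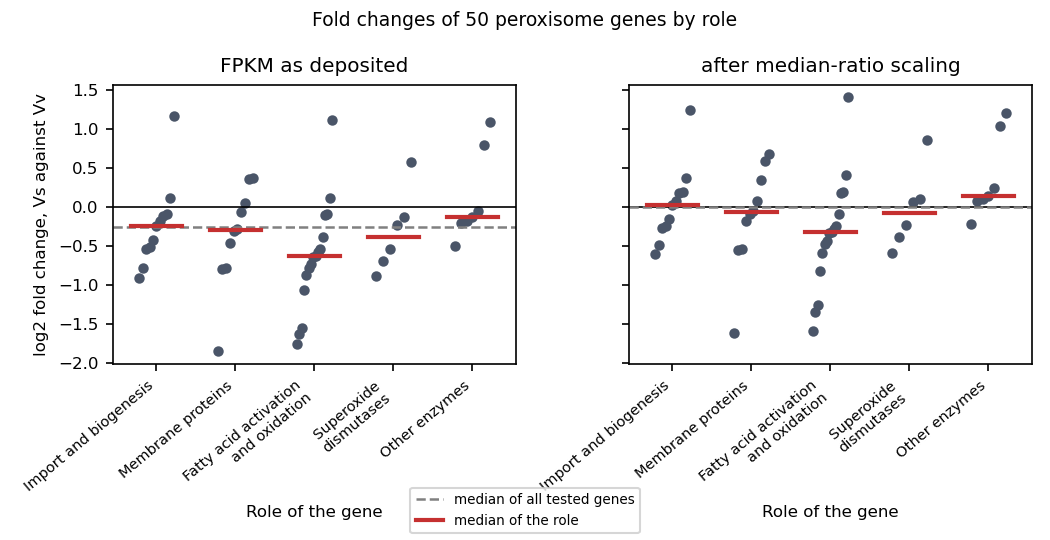
Log2 fold change (Vs against Vv) of the 50 tested peroxisome genes by role, on FPKM as deposited (left) and after median-ratio scaling (right), with 1 point per gene, red bars for the median of each role and a dashed line for the median of all 15447 tested genes (-0.25 and 0.00). Fatty acid activation and oxidation has the lowest median in both panels, -0.64 and -0.33.

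Superoxide dismutases (SOD), which turn superoxide into hydrogen peroxide, made up the 6 antioxidant genes. The most abundant, the Fe/Mn-type gene MSTRG.4198, was at 185, 189 and 218 FPKM across the Vv replicates and 85.2, 131 and 158 across the Vs replicates. All Vs libraries lay below, with a log2 fold change of -0.70 (SE 0.30, limma adjusted p = 0.251). The Cu/Zn-type gene MSTRG.17320 was at 49.8, 58.5 and 37.3 FPKM across the Vv replicates and 33.7, 28.7 and 16.6 across the Vs replicates, also without overlap (log2 fold change -0.89, SE 0.33, limma adjusted p = 0.210). CSD3 (MSTRG.19866), the Cu/Zn enzyme found in peroxisomes in Arabidopsis, was at 30.7, 33.9 and 27.3 FPKM and 26.5, 24.4 and 26.6. The groups were barely apart. The Fe/Mn-type gene MSTRG.7763 was at 14.5, 12.2 and 4.89 FPKM across the Vv replicates and 15.5, 11.9 and 17.5 across the Vs replicates, and only Vv replicate 3 was low. MSTRG.5678 and FSD3 (MSTRG.1771) overlapped between the groups. Of the 6 genes, 5 were below 0, with a median log2 fold change of -0.39. In 3, or 50%, the Vs libraries all lay below, where 26.2% of all tested genes did so. After median-ratio scaling the median was -0.080, 3 of the 6 were below 0, and the Vs libraries all lay below in 0 genes, beside 12.3% of all tested genes.

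Among the other enzymes stood the 1 gene whose Vs libraries all lay above the Vv libraries. MSTRG.18940, with the orthology entry of a Nudix-type hydrolase, was at 2.77, 3.11 and 2.13 FPKM across the Vv replicates and 3.43, 7.08 and 6.12 across the Vs replicates. Vs replicate 1 was close to the Vv libraries, and the log2 fold change was 0.80 (SE 0.28, limma adjusted p = 0.203), or 1.04 after median-ratio scaling. The most abundant, the HMG-CoA lyase gene MSTRG.17184, of leucine breakdown, was at 39.5, 27.8 and 13.8 FPKM across the Vv replicates and 30.7, 19.0 and 23.3 across the Vs replicates. The groups overlapped fully, with a log2 fold change of -0.054 (SE 0.41, limma adjusted p = 0.946), and 0.25 after scaling. MVK (MSTRG.5561), the mevalonate kinase of isoprenoid synthesis, was at 8.81 to 17.6 FPKM across the Vv replicates and 10.05 to 10.8 across the Vs replicates. The fatty acyl-CoA reductase gene MSTRG.17395, of a family that makes wax alcohols, was at 0.653 FPKM in Vv replicate 1, 3.64 in Vs replicate 1 and 2.44 in Vs replicate 3, and listed at 0 in the other 3 libraries. Of the 7 tested genes of 9 in this role, 5 were below 0 with a median of -0.13, which ranged from -0.38 to 0.080 when 1 library was left out and was 0.13 after scaling.

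The 3 remaining genes without a test were also at low levels. They were the fatty acyl-CoA reductase gene VIT_06s0080g00110, at 0.0586 FPKM in Vv replicate 1 and listed at 0 elsewhere, the reductase gene MS2 (VIT_08s0007g07100), at 0.108 FPKM or less in every library, and the dienoyl-CoA reductase gene VIT_17s0000g08740, at 0.192 to 0.432 FPKM across the Vv replicates and 0.0495 to 0.206 across the Vs replicates.

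Several of the widest spreads followed 1 library. Vv replicate 3 was at least 2-fold below each of the other libraries for MPV17 (MSTRG.11418), LACS (MSTRG.18798) and SOD (MSTRG.7763). The leaf antenna genes were low in the same library. There CAT2 (MSTRG.9455), a catalase, was at 203 FPKM against 1567 to 2729 elsewhere, and AGT (MSTRG.17256), a photorespiratory aminotransferase, at 67.2 against 525 to 793. Both were chosen, after their values were seen, from the 10 peroxisome genes of carbon metabolism. Other genes of the 10 went the other way. The isocitrate dehydrogenase genes were highest in Vv replicate 3, among them MSTRG.14574 at 164 FPKM. Whether the share of leaf in the pool had a part in the levels of the MPV17, LACS and SOD genes was not tested. Without this library the Vs libraries lay below the Vv libraries in 28 of the 50 genes, or 56%, where 36% of all tested genes did so with the same 5 libraries. The median log2 fold change of the list without it was -0.36. Other libraries stood apart as well. Vs replicate 1 was at least 2-fold below each of the others for LACS2 (MSTRG.13458), MSTRG.6029 and MSTRG.12160, and Vs replicate 3 for MPV17 (MSTRG.13600). Without Vs replicate 1 the log2 fold change of MSTRG.6029 was -1.11.

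**Figure D4:**
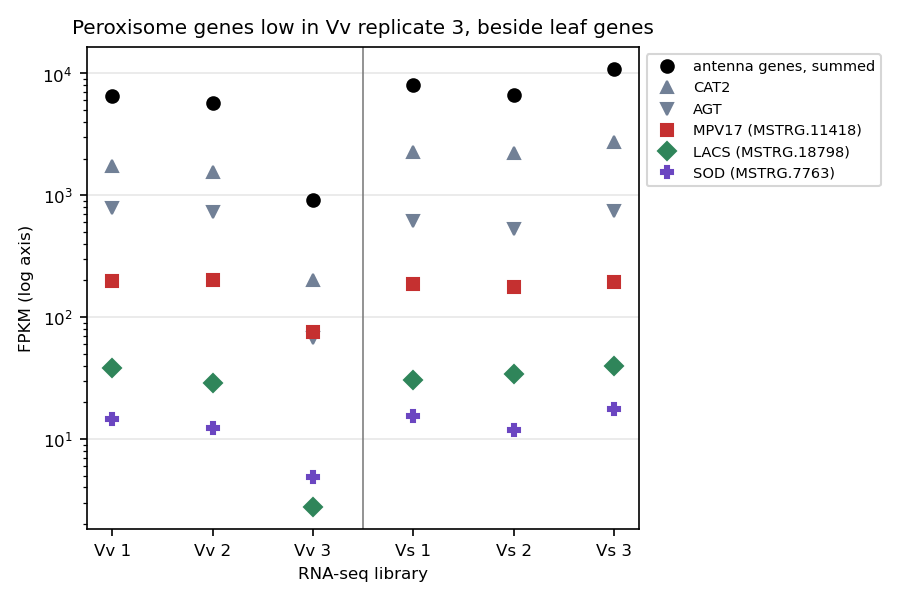
FPKM by library, on a log axis, of 3 peroxisome genes (colored) beside 16 summed leaf antenna genes, CAT2 and AGT (black and gray). All but the antenna genes were chosen after their values were seen. All 6 series dip in Vv replicate 3, the antenna sum to 909 and LACS (MSTRG.18798) to 2.76 FPKM.

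The label of the list was compared with a measure that did not choose it, the Gene Ontology term for the peroxisome. The 18 tested genes with that term had a median log2 fold change of -0.24, with 15 below 0, and the 32 tested genes without it a median of -0.45, with 25 below 0. The genes annotated to the organelle itself had the higher median. Without Vs replicate 1 the medians were -0.24 and -0.29, and after median-ratio scaling 0.045 and -0.15. In level, the median over the 54 genes of the mean FPKM was 10.4, beside 2.001 over all genes of the table, many of which lie under 1 FPKM. Among tested genes alone it was 11.7 for the peroxisome genes, beside 6.70 for all. MPV17, LACS and SOD genes belong to families with similar copies, and 3 loci, MSTRG.5678, MSTRG.8677 and MSTRG.17184, join several annotated genes, so that reads of one copy may have been counted under another.

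The degradome library, which sequences the cut ends of transcripts and held pooled RNA of all 6 samples, offered a second reading of the same genes. Of 8858 predicted pairs of a small RNA and a transcript, 1559 had a site with cut ends. On transcripts of the peroxisome genes fell 5 predicted pairs, which count the site of LACS8 on 2 transcripts of that gene. Among the peroxisome genes, 2 genes had a site with cut ends. The small RNAs of these 2 genes are shown 5′ to 3′ because the cut is looked for opposite their bases 10 and 11, which stand in capitals.
PC-5p-834650_5: ttctcagctGCtaatatcaaa
ptc-miR159d_R-1_1ss1CT: tttggattgAAgggagctcc
PC-5p-834650_5, a 21-base small RNA with no known family in the deposited name, was paired with LACS8 at position 1054 of its annotated transcript, where 7 degradome reads began. This site had category 2, a position above the median of the transcript but not its maximum, and a deposited p of 0.973. The miR159 variant, of 20 bases, was paired with the Cu/Zn SOD gene MSTRG.17320 at position 408 of its transcript, with 1 read, category 4 and a deposited p of 1. Neither site stood out from the degradation background by its deposited p. With 1 pooled library the sites cannot be compared between Vv plants and Vs hybrids.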

How the data were processed

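The deposited FPKM per gene were estimated by the authors with StringTie 1.3.4 from HISAT alignments to a *V. vinifera* genome (the sources used here name no build). For the degradome, the authors deposited raw counts of reads at predicted cut sites, with a p-value, an alignment score and a category from CleaveLand 3.0. Here log2(FPKM + 1) was fitted for 15447 genes (mean FPKM of 1 or more) in R 4.3.3 with limma 3.58.1 (eBayes with a trend), Vs against Vv, 3 libraries each, and p-values were adjusted over all these genes by Benjamini-Hochberg. The fit was tested on simulated data. Roles followed KEGG orthology. Per-library values are given for called genes, for the 15 genes of smallest p, for the most abundant gene of each role and for genes with a degradome site of category 0 to 2, and other genes were chosen after their values were seen. Members and lists were chosen with earlier results of these data known. Depth is unknown for FPKM. Of 219 sets of values shared with a gene list of the study, 1 had the same gene number there and 144 had a description, which matched in 144, and the deposited pairing was used. The values of 1 import gene, counted in the totals, are not reported here. Small RNA levels and protein sequences were not analysed here. Alternatives were another pseudocount, no filter, median-ratio scaling, quantile normalization, eBayes without a trend, a replicate block and leaving out each library.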

Additional observations from a re-analysis of the deposited data

How the results depend on the processing

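The number of peroxisome genes past the adjusted limma threshold was 0 instead of 1 without the filter, with median-ratio scaling, with quantile normalization and with the replicate block, and 0 to 0 when each library was left out in turn. The 1 call, ACX (MSTRG.3093), had an adjusted p of 0.0410 with a pseudocount of 0.1 and 0.0451 without the trend, and of 0.0536, 0.107, 0.0891 and 0.165 in the 4 settings that lost it. Genes past the thresholds of the study results numbered 1 with a pseudocount of 0.1 and after quantile normalization, and 1 to 2 when each library was left out. MPV17 (MSTRG.13600) was not among them with a pseudocount of 0.1, median-ratio scaling, quantile normalization or the replicate block. The median log2 fold change was -0.35 and became -0.093 with median-ratio scaling and -0.16 with quantile normalization. Genes whose Vs libraries all lay below the Vv libraries numbered 11 after median-ratio scaling and 18 to 28 when each library was left out, 28 without Vv replicate 3, where 2 against 3 libraries are separated more easily. Of the named genes, MPV17 (MSTRG.11418) reversed to -0.098 without Vv replicate 3 (range -0.098 to 0.61 when each library was left out). HMG-CoA lyase (MSTRG.17184) reversed to 0.25 with median-ratio scaling, to 0.17 with quantile normalization and, with 1 library left out, to 0.27 (Vv replicate 1), 0.025 (Vv replicate 2) and 0.10 (Vs replicate 2), in a range of -0.46 to 0.27. ACX (MSTRG.3093) lost its call in 10 comparisons. The other comparisons of named genes, 200 of 216, kept their direction and side of the threshold. Since ACX was the only named gene called, the others had no call to lose, and the 200 are not a measure of stable calls. The cause of these changes was not tested. Deviations of samples with the same replicate number had correlations across genes of 0.17, -0.047 and 0.037, so the numbers were not taken to pair the plants. With the replicate block 8 of all tested genes were called, against 68. Leaving 1 of 3 libraries out assumes that the remaining samples vary alike. FPKM without read counts gives no counting error, and low values such as 0.0368 FPKM are uncertain. The planned search of proteins for targeting signals was not run.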

Other observations

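The 10 peroxisome genes of carbon metabolism, read from the same limma fit, went in several directions. Their median log2 fold change was -0.14, with 5 below 0 and 0 called, and it moved to -0.30 with Vv replicate 3 left out, to 0.094 with Vs replicate 1 left out and to 0.15 after median-ratio scaling. The second catalase gene, MSTRG.14958, was at 194, 231 and 155 FPKM across the Vv replicates and 153, 116 and 110 across the Vs replicates, opposite in order to CAT2, which was at 1732, 1567 and 203 and at 2263, 2213 and 2729. Among 4 glycolate oxidase genes, MSTRG.1579 was at 1141, 1077 and 262 FPKM across the Vv replicates and 1125, 1121 and 1318 across the Vs replicates, while MSTRG.20045 was at 8.31, 6.92 and 7.41 and at 4.54, 3.11 and 3.83 (log2 fold change -0.83, SE 0.20, limma adjusted p = 0.152). Of 3 isocitrate dehydrogenase genes, MSTRG.14574 was at 129, 110 and 164 FPKM across the Vv replicates and 42.0, 56.9 and 52.5 across the Vs replicates. It was the 1 gene of the 10 past the thresholds of the study results (log2 fold change -1.39, SE 0.25, limma adjusted p = 0.104). MSTRG.6503 was at 18.2, 18.5 and 26.0 FPKM across the Vv replicates and 8.19, 12.3 and 14.3 across the Vs replicates. Its groups did not overlap (log2 fold change -0.81, limma adjusted p = 0.192). ICDH (MSTRG.12199) overlapped between the groups, at 20.8 to 26.3 and 10.9 to 24.6 FPKM.

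Glutathione metabolism outside the peroxisome list, another route against peroxides, had a median log2 fold change of -0.07 over 61 tested genes, with 34 below 0, and 0.22 after median-ratio scaling. The median ranged from -0.20 without Vv replicate 3 to 0.11 without Vv replicate 1. The 1 called gene was a glutathione S-transferase, MSTRG.14583, at 12.8, 21.9 and 11.3 FPKM across the Vv replicates and 315, 486 and 646 across the Vs replicates (log2 fold change 4.88, SE 0.38, limma adjusted p = 0.00722).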
